A study of Mus musculus with 4 samples.

Results

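The genes described here are 33 genes of glycolysis and of the cellular response to low oxygen, chosen by name. They form a glycolytic group of 17 genes (glucose and lactate transporters, the enzymes from hexokinase to lactate dehydrogenase, and the regulators Pfkfb3 and Pdk1) and a group of 16 targets of hypoxia-inducible factor (HIF) outside glycolysis. All 33 were among the 13071 genes of a deposited joint table of tumour-infiltrating cells and among the 12996 genes of a deposited table of monocytes and macrophages. Cells of subcutaneous mouse tumours were captured on the 10x Genomics droplet platform, which counts RNA in single cells, with 1 library per tumour group and a pool of 3 mice per library. The LLC library came from Lewis lung carcinoma tumours in mice labelled F11r fl/fl LysM-Cre-, which carry floxed F11r without the Cre that the myeloid LysM promoter would drive. The LLC CITE-seq library, in which antibody tags were read alongside RNA, came from LLC tumours in C57BL/6J mice, and the B16 library from tumours of the B16 melanoma line in C57BL/6J mice. The labels give no treatment, age or sex for any group.

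HIF is a transcription factor whose alpha subunit is hydroxylated by the Egln prolyl hydroxylases and degraded when oxygen is plentiful. When oxygen is scarce it binds short motifs near its targets and raises glucose uptake, glycolysis and lactate export, and also genes for blood vessel growth, mitophagy and lipid droplet storage. Tumour macrophages and neutrophils in poorly perfused regions are known for this programme, and several of its genes, Egln1 and Egln3 among them, feed back on HIF itself.

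The joint table held 13021 LLC and 6870 B16 cells, and the table of monocytes and macrophages held 8155 LLC, 10131 LLC CITE-seq and 2297 B16 cells. Median depth in the second table was 6530, 4546 and 9250 unique molecular identifiers (UMIs) per cell. All 8155 LLC cells and 2296 of the 2297 B16 cells of the second table are also in the joint table, so results from the 2 tables are not independent. Between libraries 5 to 29 cell barcodes were shared. Levels are UMIs of a gene per 1000000 UMIs of a pool of cells (CPM), they cover the gene's 3' counts and are not compared between genes. Brackets hold exact 95% intervals, which cover counting error only. Each group is 1 library and its cells are not replicates, so no test was made, and a gene is called higher or lower by its size alone, at a ratio of 1.5 or more, provided that both sides together held 20 UMIs or more. LLC and B16 differ in tumour line, mouse strain label and library at once, and these cannot be told apart. Marker lists were compared between subsets of the second table. Monocyte markers summed to 10535, 9514 and 9965 CPM in the Monocytes subset of LLC, LLC CITE-seq and B16, against 2974, 2391 and 2544 over all subsets. Macrophage markers summed to 2335, 2073 and 2629 CPM in Monocytes, against 11643, 13704 and 15622 over all subsets.

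Promoter stretches of 7 members are shown first, 6 that hold the letters HIF is known to read and that of Hilpda, which holds none and whose levels are followed most closely below. They were chosen for display and stand for no other member. RefSeq promoter windows on GRCm38.p6 (250 bases before to 50 after a gene's start) were matched for 31 of the 33 members, not for Ndrg1 and Bnip3l. Each window was searched on both strands for ACGTG and GCGTG, the 2 forms of the core HIF motif. The palindrome CACGTG, the E-box core, is counted among the ACGTG matches on both strands. Either form stood in the windows of 15 of 17 glycolytic genes and 14 of 14 HIF target genes, against 46.7% of all 27025 genes with a window. ACGTG alone stood in those of 11 and 13, against 21.8% of all genes. Such a match is a description of the letters and not a binding site. The stretches below are the bases before the start that lie in no annotated exon, written 5' to 3' on the gene's strand, with matches on either strand in capitals. Ldha (chr7:46845554-46845803, plus strand) held 5 matches, Pgk1 (chrX:106186850-106187099, plus strand) held 2 and Hk2 (chr6:82774455-82774704, minus strand) held 2. Among the HIF targets, Bnip3 (chr7:138909520-138909756, minus strand) held 5, Egln3 (chr12:54203875-54204124, minus strand) held 1 and Ero1l (chr14:45318573-45318702, minus strand) held 3. Hilpda (chr6:29272238-29272487, plus strand) held 0. The stretches of Hk1, Gpi1, Tpi1, Pkm, Vegfa and Mif held none either, which says only that these letters are not in them. The HIF targets Hilpda, Vegfa and Mif and the glycolytic Hk1 and Pkm hold a match elsewhere in their windows, outside the stretches. The windows of Gpi1 and Tpi1 hold none.
Ldha: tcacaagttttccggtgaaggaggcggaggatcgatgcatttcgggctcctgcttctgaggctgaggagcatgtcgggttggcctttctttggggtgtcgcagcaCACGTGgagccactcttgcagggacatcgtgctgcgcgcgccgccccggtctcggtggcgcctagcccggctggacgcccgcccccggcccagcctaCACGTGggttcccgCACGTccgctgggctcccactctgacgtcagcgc
Pgk1: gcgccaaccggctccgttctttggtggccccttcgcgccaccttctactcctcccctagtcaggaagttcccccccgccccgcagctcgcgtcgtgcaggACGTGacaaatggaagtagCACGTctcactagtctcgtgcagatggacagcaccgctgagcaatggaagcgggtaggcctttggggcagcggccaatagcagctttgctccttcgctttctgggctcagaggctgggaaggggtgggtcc
Hk2: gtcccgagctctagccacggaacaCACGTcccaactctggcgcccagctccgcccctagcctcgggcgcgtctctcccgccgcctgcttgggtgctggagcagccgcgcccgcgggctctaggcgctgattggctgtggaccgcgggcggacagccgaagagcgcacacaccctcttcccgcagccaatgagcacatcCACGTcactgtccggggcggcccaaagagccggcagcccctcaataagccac
Bnip3: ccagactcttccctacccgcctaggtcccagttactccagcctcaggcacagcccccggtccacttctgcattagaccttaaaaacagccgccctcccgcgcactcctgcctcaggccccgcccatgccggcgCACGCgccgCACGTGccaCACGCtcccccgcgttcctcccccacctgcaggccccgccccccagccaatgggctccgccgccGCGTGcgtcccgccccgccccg
Egln3: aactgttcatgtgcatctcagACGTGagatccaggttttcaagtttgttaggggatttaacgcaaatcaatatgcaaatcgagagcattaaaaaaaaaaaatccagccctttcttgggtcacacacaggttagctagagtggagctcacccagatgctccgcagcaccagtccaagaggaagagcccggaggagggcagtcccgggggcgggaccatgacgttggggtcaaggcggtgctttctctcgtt
Ero1l: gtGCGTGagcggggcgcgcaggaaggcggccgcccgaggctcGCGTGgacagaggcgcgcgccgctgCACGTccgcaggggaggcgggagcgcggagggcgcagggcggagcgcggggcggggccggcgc
Hilpda: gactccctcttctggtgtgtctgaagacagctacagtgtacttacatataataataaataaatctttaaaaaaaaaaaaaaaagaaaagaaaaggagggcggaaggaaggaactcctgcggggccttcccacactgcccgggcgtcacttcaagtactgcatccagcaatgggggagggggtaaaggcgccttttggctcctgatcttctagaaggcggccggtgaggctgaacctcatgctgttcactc

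Within monocytes and macrophages, most members were highest in the subset that the authors named Mono/TAM Hypoxic, where TAM stands for tumour-associated macrophage. It held 1095 of 8155 LLC cells, 570 of 10131 LLC CITE-seq cells and 213 of 2297 B16 cells. In LLC, 14 of 17 glycolytic members and 15 of 16 HIF targets were at least 1.5-fold higher there than in the other subsets, against 10.8% of all genes. The counts were 13 and 15 in LLC CITE-seq, against 12.3% of all genes, and 17 and 16 in B16, against 14.8%. No member was called lower in any of the 3 libraries, and 11 glycolytic members and 14 HIF targets were called higher in all of them. The median ratio was 1.72, 1.66 and 1.87 for glycolytic members and 4.55, 3.73 and 4.27 for HIF targets in LLC, LLC CITE-seq and B16. The median of all genes was -0.38, -0.29 and -0.33 on the log2 scale. These cells were clustered on their own expression, so the contrast describes the subset and supports nothing about it.

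Among the glycolytic members, the glucose transporter Slc2a1 and the regulator Pfkfb3, which makes the activator of phosphofructokinase, differed most between this subset and the rest. Slc2a1 stood at 686 (664-708) CPM in LLC, 492 (460.2-525) in LLC CITE-seq and 681 (639-725) in B16, 4.14, 3.32 and 4.83 times its level in the other subsets. Pfkfb3 stood at 189 CPM in LLC, 165 in LLC CITE-seq and 209.98 in B16, with ratios of 4.59, 4.17 and 2.99. The enzymes of the main chain had smaller ratios in every library. Pgk1, which makes ATP in the payoff phase, stood at 2325 CPM in LLC, 1766 in LLC CITE-seq and 1834 in B16, with ratios of 2.27, 2.13 and 2.17. Hexokinase 2, Hk2, the inducible enzyme of the first step, had ratios of 2.596, 2.36 and 1.87, and the constitutive Hk1 had 2.23, 1.42 and 2.13. The isomerase Gpi1 had ratios of 2.16, 1.84 and 2.12, the phosphofructokinase subunit Pfkp 2.28, 2.13 and 1.72 and the liver-type subunit Pfkl 1.44, 1.66 and 1.65. Gapdh, often used as a reference gene, had ratios of 1.94, 1.64 and 1.91. It was therefore among the genes called higher in this subset in each library.

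The remaining glycolytic members follow the chain downwards. Ratios in LLC, LLC CITE-seq and B16 were 1.57, 1.55 and 1.92 for aldolase Aldoa, 1.72, 1.86 and 1.86 for the triose isomerase Tpi1 and 1.52, 1.39 and 1.801 for the mutase Pgam1. They were 1.66, 1.68 and 2.06 for enolase Eno1, 1.52, 1.502 and 1.55 for pyruvate kinase Pkm and 1.47, 1.54 and 1.76 for lactate dehydrogenase A, Ldha. Pdk1, the kinase that shuts off pyruvate dehydrogenase, had 1.63, 1.43 and 1.504. The lactate exporter Slc16a3 had 1.26, 1.22 and 1.82 and passed 1.5-fold in B16 but not in either LLC library. Its level in the subset was 394 CPM in LLC, 329 in LLC CITE-seq and 295 in B16. In both LLC libraries its highest level was instead in Immature TAM-2, at 464 (449-481) CPM in LLC and 429 (408-452) in LLC CITE-seq. The difference between the libraries in this ratio was not tested.

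Among the HIF targets, Egln3 had the highest ratio in LLC and B16 and Ddit4 in LLC CITE-seq, with Hilpda second in each library. In the LLC libraries the other subsets include another one named hypoxic, LLC TAM Hypoxic, described below. It held 13.2% of Hilpda and 8.65% of Egln3 UMIs in LLC. In LLC CITE-seq it held 14.05% of Hilpda and 7.38% of Ddit4 UMIs. The order of the genes in these libraries depends on this reference. Egln3, the prolyl hydroxylase that is itself induced by HIF, stood at 513 (494-532) CPM in LLC, 257 (235-282) in LLC CITE-seq and 349 (319-381) in B16, with ratios of 9.81, 5.899 and 12.2. Hilpda, a lipid droplet protein that blocks fat breakdown, stood at 2051 (2014-2089), 1456 (1402-1513) and 1638 (1573-1706) CPM, with ratios of 9.37, 8.66 and 9.02. All other subsets of LLC and LLC CITE-seq lay below these levels of Hilpda, as did those of B16. Ndrg1, a stress-responsive protein, had ratios of 9.26, 6.404 and 6.64. The endoplasmic reticulum oxidase Ero1l had 7.99, 4.902 and 6.199. Ddit4, an inhibitor of mTOR signalling, had 6.16, 9.34 and 7.14. The counterpart hydroxylase Egln1, the main oxygen sensor, moved less, with ratios of 2.89, 2.04 and 2.44.

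The secreted members were also higher in this subset than in the other subsets together. Vegfa, the growth factor for blood vessels, stood at 632 (611-653) CPM in LLC, 436 (406-467) in LLC CITE-seq and 461 (427-498) in B16, with ratios of 5.33, 5.41 and 7.01. Adm, which encodes the vasodilator adrenomedullin, had ratios of 6.31, 4.92 and 6.12. These rest on unlike references. The subset LLC TAM Hypoxic, described below, held 41.8% of Adm UMIs in LLC and 43.8% in LLC CITE-seq, against 0.272% in B16. Adm stood at 32.9 CPM in Mono/TAM Hypoxic of LLC and 19.6 of LLC CITE-seq, against 1.81 and 2.06 in the subsets not named hypoxic. Mif, an abundant cytokine, had only 1.74, 1.82 and 2.01. The mitophagy receptor Bnip3 had ratios of 3.89, 3.42 and 3.92 and its relative Bnip3l 2.67, 2.11 and 2.601. The mitochondrial protein Higd1a had 2.74, 2.02 and 2.397 and the mitochondrial adenylate kinase Ak4 5.204, 4.04 and 4.62. The ankyrin repeat gene Ankrd37 had 2.43, 2.57 and 3.39. Of the collagen prolyl hydroxylase subunits, P4ha1 had 1.47, 1.502 and 2.06 and the sparse P4ha2 2.55, 1.44 and 2.38, the middle value of P4ha2 resting on 13 UMIs in the subset.

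**Figure D1:**
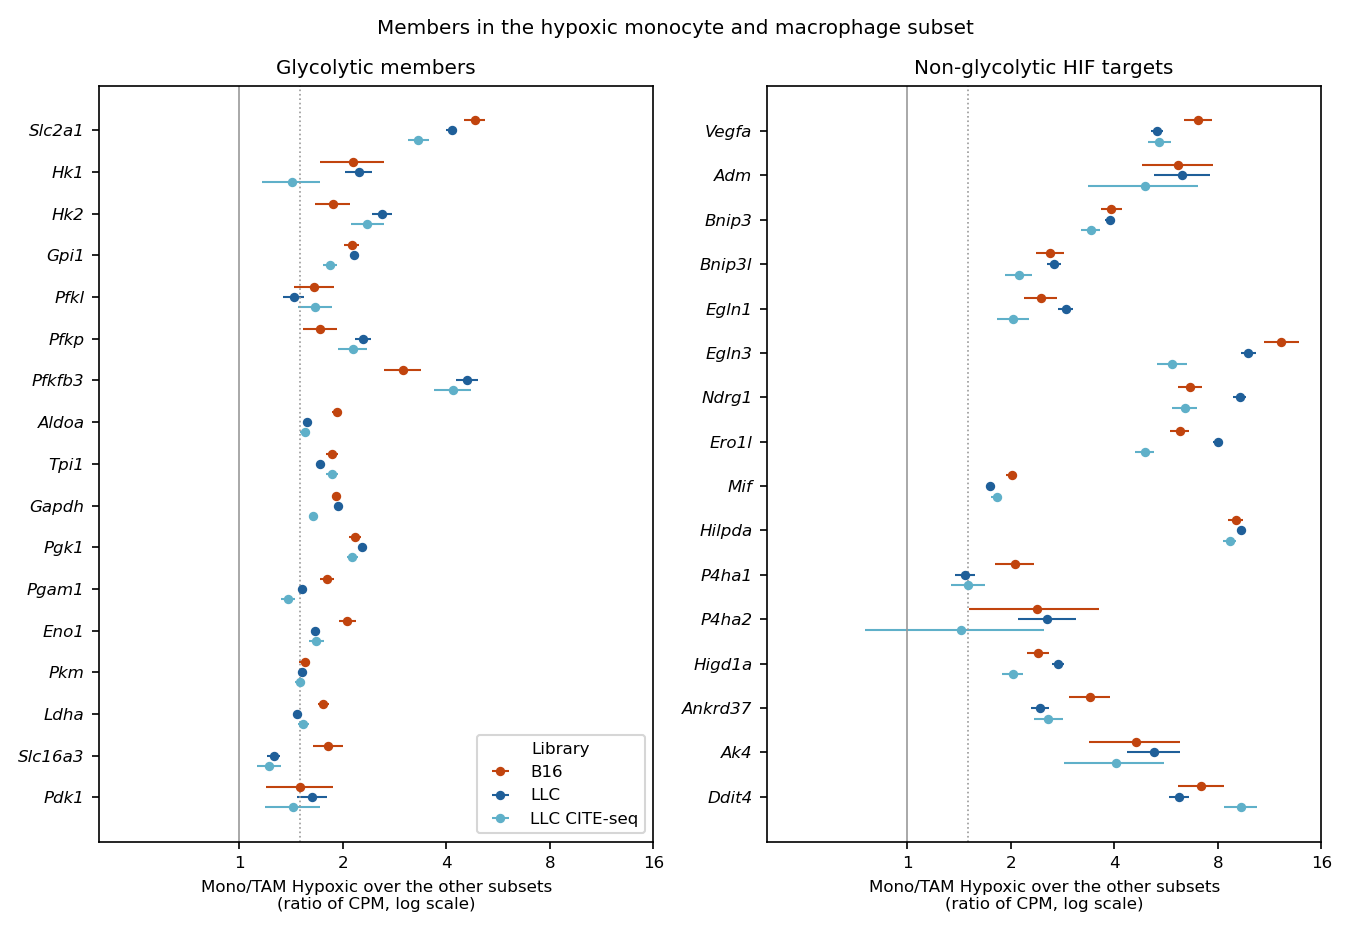
Ratio of CPM in Mono/TAM Hypoxic to CPM in the other monocyte and macrophage subsets of the same library, on a log axis, for the 17 glycolytic members and the 16 HIF targets in LLC, LLC CITE-seq and B16, with bars for the 95% interval of the ratio. HIF targets such as Hilpda (9.37, 8.66 and 9.02 in LLC, LLC CITE-seq and B16) lie far to the right of main-chain enzymes such as Pkm (1.52, 1.502 and 1.55).

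The higher levels were spread over most cells of the subset. With each cell thinned to 2000 UMIs, a cell of Mono/TAM Hypoxic held a median of 19 UMIs of HIF targets in LLC, 13 in LLC CITE-seq and 17 in B16, against 2, 2 and 1 in Monocytes. The top 90% of the LLC cells of the subset held at least 9 such UMIs. Other LLC subsets lay nearer than Monocytes, with medians of 11 in LLC TAM Hypoxic, 6 in TAM-2 and 5 in Immature TAM-2. The top 10% of cells of TAM-2 and of Immature TAM-2 held at least 12, so their cells overlap those of Mono/TAM Hypoxic. Glycolytic members summed to a median of 46, 39 and 43.5 UMIs, against 11, 11 and 8 in Monocytes. Thinning left out 55, 89 and 7 shallower cells of Mono/TAM Hypoxic and 28, 63 and 9 of Monocytes. The subset's median depth was 4703, 2945 and 6249 UMIs, below that of all monocytes and macrophages in each library. The 10 genes of a tissue dissociation stress list summed to 6593, 6065 and 6013 CPM in the subset, against 3159, 2291 and 2405 over all subsets, and their part in the result was not tested.

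Because the subset is small, the share of each gene's UMIs that it carried shows the same contrast in another way. In LLC it held 13.4% (12.7-14.2) of the monocytes and macrophages and 8.94% of their UMIs, yet 49.05% (47.8-50.3) of those of Egln3, 47.9% (47.3-48.5) of Hilpda and 47.6% (46.5-48.7) of Ndrg1. Its share of Gapdh UMIs was 16.002% (15.9-16.2). In B16 it held 9.27% (8.12-10.5) of cells and 43.2% (40.3-46.1) of Egln3 UMIs. In LLC CITE-seq it held 5.63% (5.19-6.09) of cells and 22.4% (21.6-23.1) of Hilpda UMIs. The cell share of the subset in LLC was thus well above that in LLC CITE-seq, in libraries of the same tumour line.

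Across all subsets with at least 50 cells, Mono/TAM Hypoxic had the highest level for 15 of 17 glycolytic members and 13 of 16 HIF targets in LLC, for 13 and 14 in LLC CITE-seq, and for 16 and 16 in B16. The subset named Monocytes had the lowest level for 15 of 17 and 14 of 16 members in LLC, for 13 and 12 in LLC CITE-seq, and for 16 and 13 in B16. Hilpda showed the widest range of the well-counted members. It stood at 41.03 CPM in LLC, 47.98 in LLC CITE-seq and 28.5 in B16 in Monocytes. In LLC the other subsets ran from 90.7 CPM in TAM-3 through 149 in TAM-4, 172 in Immature TAM-3, 172 in Mono/TAM IFN, 283 in Immature TAM-2 and 326 in TAM-2 to 839 in LLC TAM Hypoxic. Among the HIF targets, Bnip3l and Ddit4 were lowest in another subset in all 3 libraries, as were Adm in LLC CITE-seq and B16 and P4ha2 in LLC CITE-seq. The level of Bnip3l in Monocytes was 190.2 CPM in LLC, 177 in LLC CITE-seq and 226 in B16, above that of TAM-3 in LLC (129.7 CPM) and of TAM-1 in B16 (136).

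**Figure D2:**
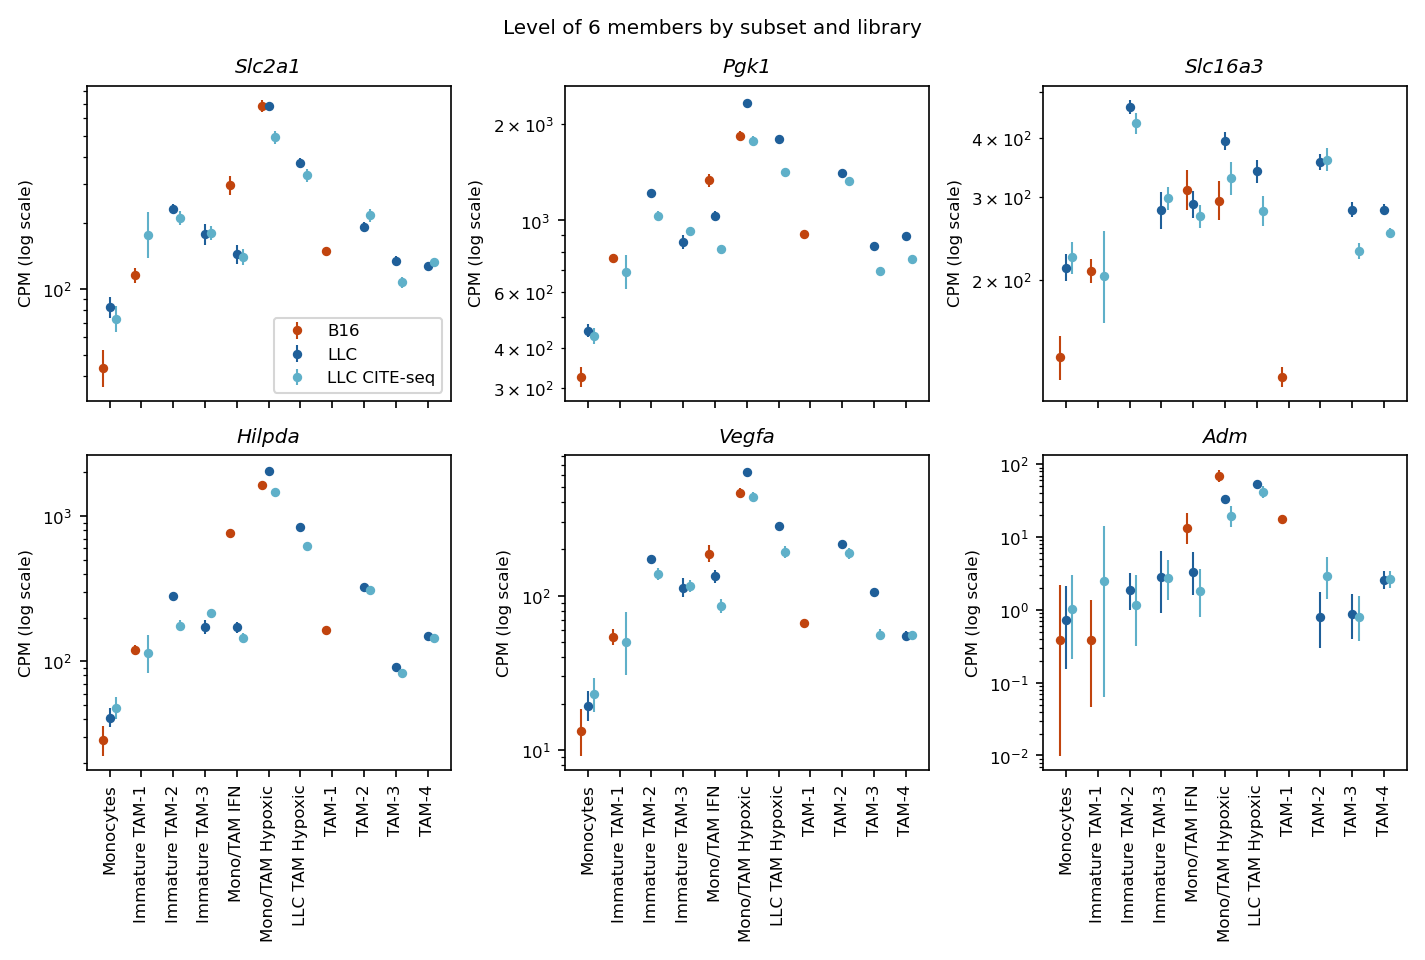
CPM, on a log axis, of Slc2a1, Pgk1, Slc16a3, Hilpda, Vegfa and Adm in each monocyte and macrophage subset with at least 50 cells, for LLC, LLC CITE-seq and B16, with bars for the 95% interval. Hilpda runs from 41.03 CPM in LLC Monocytes to 2051 in LLC Mono/TAM Hypoxic, while Slc16a3 runs over a narrower range.

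A different subset, named LLC TAM Hypoxic by the authors, held 455 LLC and 511 LLC CITE-seq cells and only 17 B16 cells. Against the subsets not named hypoxic, 8 of 17 glycolytic members and 14 of 16 HIF targets were higher in LLC, against 9.8% of all genes, and 8 and 15 in LLC CITE-seq, against 9.33%. This is again a cluster against the rest and a description. Its make-up was not that of Mono/TAM Hypoxic. Macrophage markers summed to 10944 CPM in LLC TAM Hypoxic and 2681 in Mono/TAM Hypoxic of LLC, and monocyte markers to 530.5 and 2834. Adm, P4ha2 and the glycolytic Pgam1 were highest of all subsets here in both LLC libraries, Mif in LLC and Pdk1 in LLC CITE-seq. The intervals of Mif, of Pdk1 and, in LLC, of Pgam1 overlap those in Mono/TAM Hypoxic, the next highest. Adm stood at 53.4 (46.2-61.3) CPM in LLC TAM Hypoxic of LLC and 41.7 (34.3-50.1) of LLC CITE-seq, above Mono/TAM Hypoxic with 32.9 (28.3-38.1) and 19.6 (13.7-27.1). Every subset of these 2 libraries not named hypoxic and with at least 50 cells lay between 0.737 and 3.36 CPM. The ratio of Adm in LLC TAM Hypoxic to those subsets was 29.6 (23.04-38.2) in LLC and 20.3 (15.4-26.6) in LLC CITE-seq. P4ha2 had 5.44 and 4.62, Hilpda 4.79 and 4.32, and Ndrg1 4.47 and 3.59. Ddit4, by contrast, had 1.197 and 2.09, and Slc2a1 2.499 and 2.37.

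Of 42 other genes of the pathway listed alongside the members, 38 were in the tables. In Mono/TAM Hypoxic against the other subsets, 14 of 36 measured were higher and 9 lower in LLC, 14 and 11 of 36 in LLC CITE-seq, and 13 and 10 of 35 in B16. Of all genes, 10.8%, 12.3% and 14.8% were called higher. No share of all genes is given for those called lower. The median of all genes was -0.38, -0.29 and -0.33 on the log2 scale. Among the 3 highest ratios in LLC were the placental growth factor Pgf (8.26) and the glucose transporter Slc2a3 (5.88). In LLC CITE-seq the 3 highest were the transcription factor Bhlhe40 (4.36), Pgf (4.25) and the stress cytokine Gdf15 (4.15), and in B16 Pgf (16.1), Bhlhe40 (6.92) and the MYC antagonist Mxi1 (6.84). The lowest were lactate dehydrogenase B, Ldhb (0.186), the transporter Slc2a6 (0.197) and Tigar (0.252), which diverts sugar from glycolysis, in LLC, and Slc2a6 (0.234), G6pdx of the pentose phosphate pathway (0.362) and the carbonic anhydrase Car9 (0.373) in LLC CITE-seq. In B16 Pdk2 and Pfkm had no UMI in the subset, against 41 and 71 in the others, and Tigar had 0.366.

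The glycolytic and HIF target groups varied together over pools of cells. Over 24 pools (subsets of the 3 libraries with at least 50 cells), the mean standardised log2 level of the HIF targets had a Pearson correlation of 0.954 with that of the glycolytic members. This is a description, without a p-value, since pools of 1 library share its depth and its mice. Slc16a3 and Bnip3l followed the HIF targets least, with correlations of 0.5901 and 0.691 with the other HIF targets. Outside the members and the listed pathway and marker genes, the 10 genes most like the mean of the HIF targets were Tmem189 (0.983), Npepps (0.962), Eif4ebp1 (0.955), Mgarp (0.941), Bsg (0.9404), Raph1 (0.931), Riok3 (0.929), Plekhm2 (0.929), Galnt6 (0.928) and Gabarap (0.927). Bsg encodes basigin, a partner of lactate transporters. It stood at 849.6 CPM in Mono/TAM Hypoxic and 226 in Monocytes of LLC.

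The joint table splits tumour neutrophils into the clusters Neutrophil-1 and Neutrophil-2, and most members were higher in Neutrophil-2 in both tumours. In LLC, 16 of 17 glycolytic members and 15 of 15 measured HIF targets were called higher there, against 21% of all genes. In B16 the counts were 13 of 15 and 12 of 13, against 27.5%. None was called lower, and 13 glycolytic members and 12 HIF targets were called higher in both tumours. The clusters were formed on expression, so this too is a description. Hilpda stood at 3859.8 and 4589 CPM in Neutrophil-2 of LLC and B16, against 365 and 100.5 in Neutrophil-1. Its ratio was 10.6 (9.63-11.6) in LLC and 45.7 (32.8-65.4) in B16. Ero1l stood at 1775 and 1069 CPM in Neutrophil-2 of LLC and B16, against 149.5 and 57.04 in Neutrophil-1, with ratios of 11.9 (10.3-13.8) and 18.7 (11.9-31.1). Both genes thus had wider gaps between the neutrophil clusters than between Mono/TAM Hypoxic and all other monocyte and macrophage subsets together. In LLC those other subsets include LLC TAM Hypoxic, and for Hilpda in LLC the order of the gaps depends on it. There Hilpda stood at 2051 CPM in Mono/TAM Hypoxic and at 175 in the subsets not named hypoxic.

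Other HIF targets had ratios of Neutrophil-2 to Neutrophil-1, in LLC and B16, of 6.27 and 7.45 for Bnip3, 6.396 and 6.95 for Higd1a and 4.84 and 11.4 for Vegfa. They were 3.51 and 8.67 for Egln3, 4.71 and 5.499 for Ddit4 and 3.88 and 14.6 for P4ha1. Of the glycolytic members, Hk2 had 6.38 and 17.9, Tpi1 3.35 and 10.7, Ldha 3.64 and 4.85 and Pfkl 3.97 and 13.1. The lactate exporter Slc16a3 had 0.845 (0.779-0.917) and 1.16 (0.876-1.52) and was called in neither. Gpi1 had 2.301 and 1.03. The B16 values rest on 85 Neutrophil-2 and 214 Neutrophil-1 cells with median depths of 1803 and 1642 UMIs. P4ha2 had at most 1 UMI in each neutrophil cluster.

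The share of neutrophils in Neutrophil-2 was 58.4% (56.2-60.6) in LLC, 1142 of 1955 cells, and 28.4% (23.4-33.9) in B16, 85 of 299. The clusters were formed on expression that includes the members, so the shares describe the annotation. Neutrophil markers (S100a8, S100a9, Retnlg, Csf3r, G0s2, Cxcr2 and Mmp8) summed to 185281 and 153188 CPM in Neutrophil-1 of LLC and B16 and to 108846 and 38984 in Neutrophil-2. Thinned to 2000 UMIs, an LLC cell of Neutrophil-2 held a median of 20 HIF target UMIs and one of Neutrophil-1 a median of 2. Thinning left out 800 of 1142 and 650 of 813 shallower cells.

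**Figure D3:**
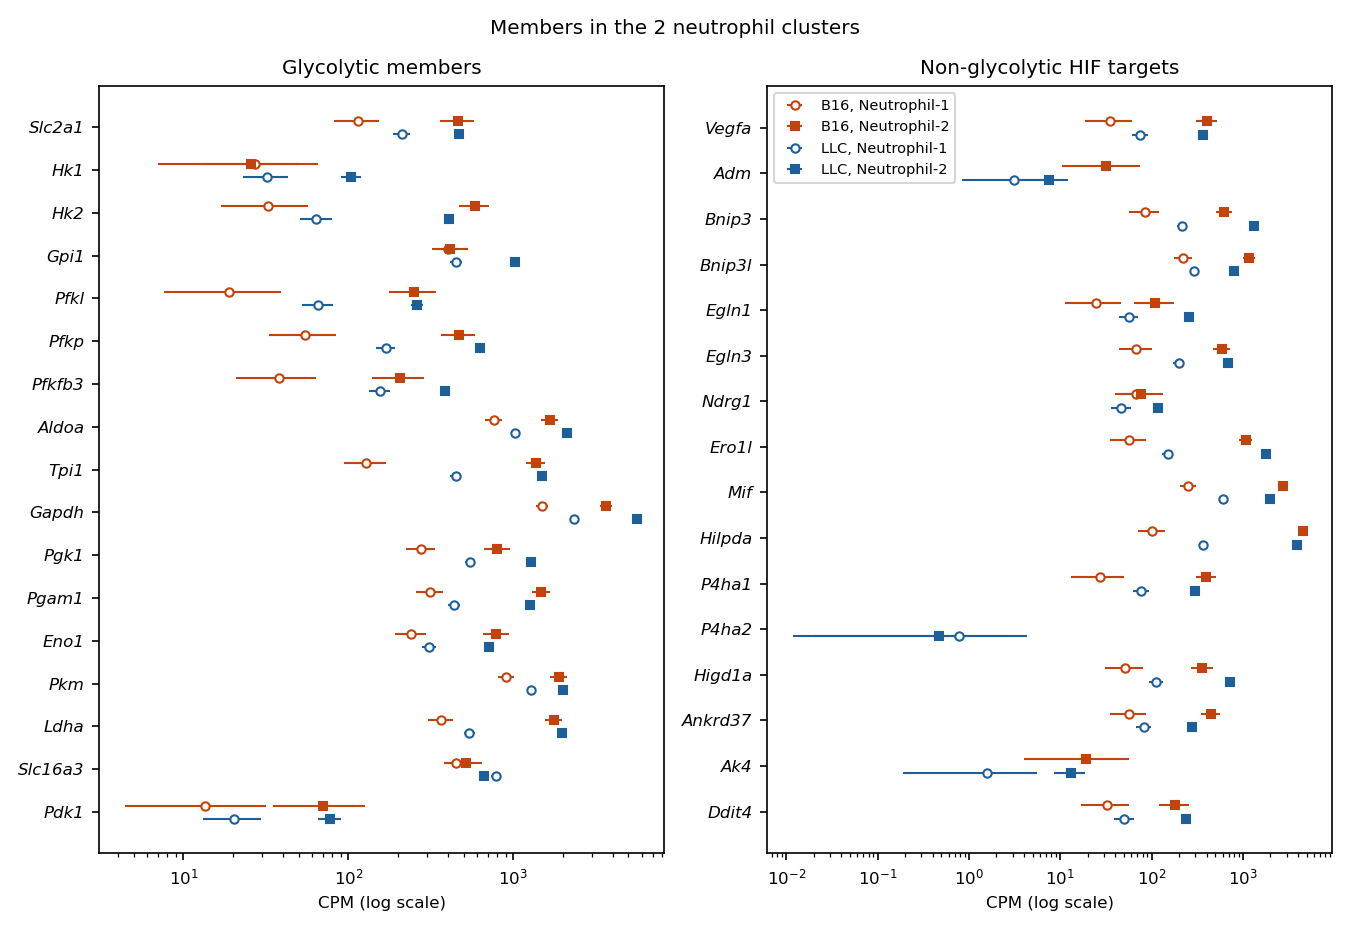
CPM, on a log axis, of each member in Neutrophil-1 and Neutrophil-2 of LLC and B16, with bars for the 95% interval; pools with 0 UMIs are not drawn (Adm and Ak4 in Neutrophil-1 of B16 and P4ha2 in B16). Hilpda lies at 3859.8 and 4589 CPM in Neutrophil-2 and at 365 and 100.5 in Neutrophil-1 of LLC and B16.

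Set against the monocytes and macrophages of the same library, neutrophils as a class had higher levels of several HIF targets in both tumours. The monocyte and macrophage class of the joint table joins 10 clusters. It leaves out the cluster Neutrophil-like monocytes, which held 890 LLC and 31 B16 cells. In LLC, 7 of 17 glycolytic members and 10 of 16 HIF targets were called higher, against 16.1% of all genes, and 0 and 1 lower, against 64%. In B16, 2 and 8 were higher, against 31.8%, and 3 and 3 lower, against 42.8%. The median of all genes was -1.22 on the log2 scale in LLC and -0.28 in B16, so that most genes were lower per UMI in LLC neutrophils. With that median taken off, 32 of 33 members were called higher in LLC, and 3 were called lower in B16. The shares of all genes given above belong to the ratios without this step and do not apply to these counts. No share of all genes is given after this step, so these counts cannot be set against other genes. Hilpda had ratios of 7.54 in LLC and 6.65 in B16, Egln3 6.198 and 5.85, Bnip3l 3.55 and 3.55, and Ddit4 3.23 and 2.78. Slc16a3 was the glycolytic member with the larger ratio in B16, 3.06 against 2.39 in LLC, and Pfkfb3 had 6.23 in LLC and 1.24 in B16. Pgk1 had 0.941 and 0.503 and Tpi1 1.203 and 0.5198. Higd1a was called higher in LLC, with 2.02 (1.92-2.13), and lower in B16, with 0.569 (0.447-0.714). In both tumours its level lay above that of monocytes and macrophages in Neutrophil-2 and below it in Neutrophil-1. P4ha2 had 2 UMIs in LLC neutrophils and none in those of B16, against 783 and 244 in monocytes and macrophages. Of the other pathway genes, the ones with the highest ratios were Slc2a3 (108), a high-affinity glucose transporter, Kdm3a (5.05) and Gbe1 (4.40) in LLC and Slc2a3 (53.8), Slc2a6 (6.66) and Pfkfb4 (5.64) in B16. Epas1, Pfkm and Pdk2 had no UMI in LLC neutrophils, against 124, 177 and 144 in monocytes and macrophages. Slc16a1, Pdk2 and Pfkfb2 had none in B16 neutrophils, against 330, 50 and 42. In each tumour, 13 of the listed pathway genes were called lower, and 12 of 36 in LLC and 13 of 35 in B16 were called higher.

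Over all clusters of the joint table with at least 50 cells, the highest level of 32 of 33 members in LLC and 30 of 33 in B16 fell in Imm TAM-2 or Neutrophil-2. Imm TAM-2 led for 10 glycolytic members and 6 HIF targets in LLC and for 9 and 7 in B16, Neutrophil-2 for 6 and 10 in LLC and for 6 and 8 in B16. Of the rest, 1 glycolytic member was highest in Neutrophil-1 of LLC. In B16, 1 glycolytic member was highest in migDC and 1 in Tregs-1, with 1 HIF target in Tregs-1. In B16, where lymphocytes were numerous enough, plasma cells had the lowest level of 15 of 17 glycolytic members. Their UMIs fell on few genes, with medians of 25870 UMIs and 2421 genes per cell, against 17794 and 3870 in proliferating CD8 T cells. The part of this make-up in their low CPM was not tested. Some members stood out elsewhere. In B16 the mTOR inhibitor Ddit4 was highest in the regulatory T cell cluster Tregs-1, with 238 (222-255) CPM, against 179 (119-259) in Neutrophil-2 and 48.9 in naive T cells, and the first pair of intervals overlap. Pfkfb3 was highest of the B16 clusters in migratory dendritic cells (migDC), with 235 (210.4-261) CPM, against 201 (179-225) in Imm TAM-2, and these intervals overlap. In Neutrophil-2 of B16 it stood at 205 CPM on 32 UMIs. In LLC, migDC had 149 CPM of Pfkfb3. Ndrg1 stood at 116 CPM in migDC of B16 and 91.4 in those of LLC, against 28.8 and 60.1 in conventional dendritic cells of type 2 (cDC2). The platelet-type phosphofructokinase Pfkp stood at 339 CPM in B16 cDC1 and 246 in B16 cDC2, against 93.6 in migDC. In LLC, CD8 T cells, regulatory T cells, cDC1, plasmacytoid dendritic cells and plasma cells had under 50 cells each and are not given.

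The comparison between tumours asks whether the genes differ in level between the LLC and B16 environments. The monocyte and macrophage class of the joint table, which leaves out Neutrophil-like monocytes, was compared first. In it, 2 of 17 glycolytic members and 5 of 16 HIF targets were higher in LLC, against 11.9% of all genes, and none and 1 lower, against 11.9%. The lactate exporter Slc16a3 stood at 296 CPM in LLC and 153 in B16, a ratio of 1.93 (1.87-1.99). Egln3 had 2.15 (2.02-2.28), Ankrd37 1.96, Vegfa 1.87, Ddit4 1.87, Hilpda 1.57 and the hexokinase Hk1 1.52. Adm was lower, with 0.558 (0.4903-0.636). The enzymes from aldolase to lactate dehydrogenase differed little, from 0.959 for Gapdh and 0.959 for Tpi1 to 1.24 for Pgk1. With each shared cluster weighted equally, 2 members in place of 7 were higher and none lower. Without the cells that carried T, NK or B cell marker UMIs, an alternative chosen after seeing the data, 3 were higher and 3 lower.

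In the table of monocytes and macrophages, where each LLC library can be set against the same B16 library, the 2 comparisons share their B16 cells. LLC over B16 gave 1 glycolytic member and 4 HIF targets higher, against 11.8% of all genes, and 0 and 1 lower, against 11.9%. LLC CITE-seq over B16 gave 1 and 1 higher, against 9.93%, and 1 and 4 lower, against 11%. Slc16a3 was called higher with both LLC libraries, at 321 (316-325) CPM in LLC, 272 (267-276) in LLC CITE-seq and 170.1 (165-175) in B16. Ankrd37 was too, at 116 CPM in LLC, 101 in LLC CITE-seq and 59.9 in B16. Adm was lower with both, at 7.69 CPM in LLC, 4.49 in LLC CITE-seq and 14.8 in B16. The others did not hold in both LLC libraries. Vegfa stood at 164 CPM in LLC, 92.04 in LLC CITE-seq and 88.96 in B16. Egln3 stood at 93.4 CPM in LLC, 50.5 in LLC CITE-seq and 47.2 in B16 and Ddit4 at 59.4 CPM in LLC, 32.1 in LLC CITE-seq and 32.2 in B16. For these genes LLC CITE-seq lay near B16 and LLC alone lay above. With each shared subset weighted equally, no member was higher and 3 were lower in LLC, none and 2 in LLC CITE-seq, and Egln3 in LLC fell to -0.30 on the log2 scale. Ndrg1, P4ha2, Ak4 and Pfkfb3 were called lower in LLC CITE-seq, with ratios to B16 of 0.594, 0.613, 0.616 and 0.556, while in LLC they had 1.0001, 1.35, 0.889 and 0.694.

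The 2 LLC libraries, which share the tumour line and differ in mouse strain label and in method, differed from each other in the HIF targets by as much. LLC CITE-seq over LLC gave no member higher, against 3.03% of all genes, and 8 of 16 HIF targets and no glycolytic member lower, against 2.81%. The 8 were Vegfa (0.5597), Adm (0.583), Egln3 (0.541), Ndrg1 (0.594), Ero1l (0.512), Hilpda (0.548), P4ha2 (0.455) and Ddit4 (0.5401). The median of the 16 was -0.65 on the log2 scale, that of the 17 glycolytic members -0.22 and that of all genes 0.02. With each shared subset weighted equally, 1 member was lower, and without the subsets named hypoxic 2 were. The share of Mono/TAM Hypoxic, 13.4% (12.7-14.2) of LLC and 5.63% (5.19-6.09) of LLC CITE-seq cells, moved with this result.

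**Figure D4:**
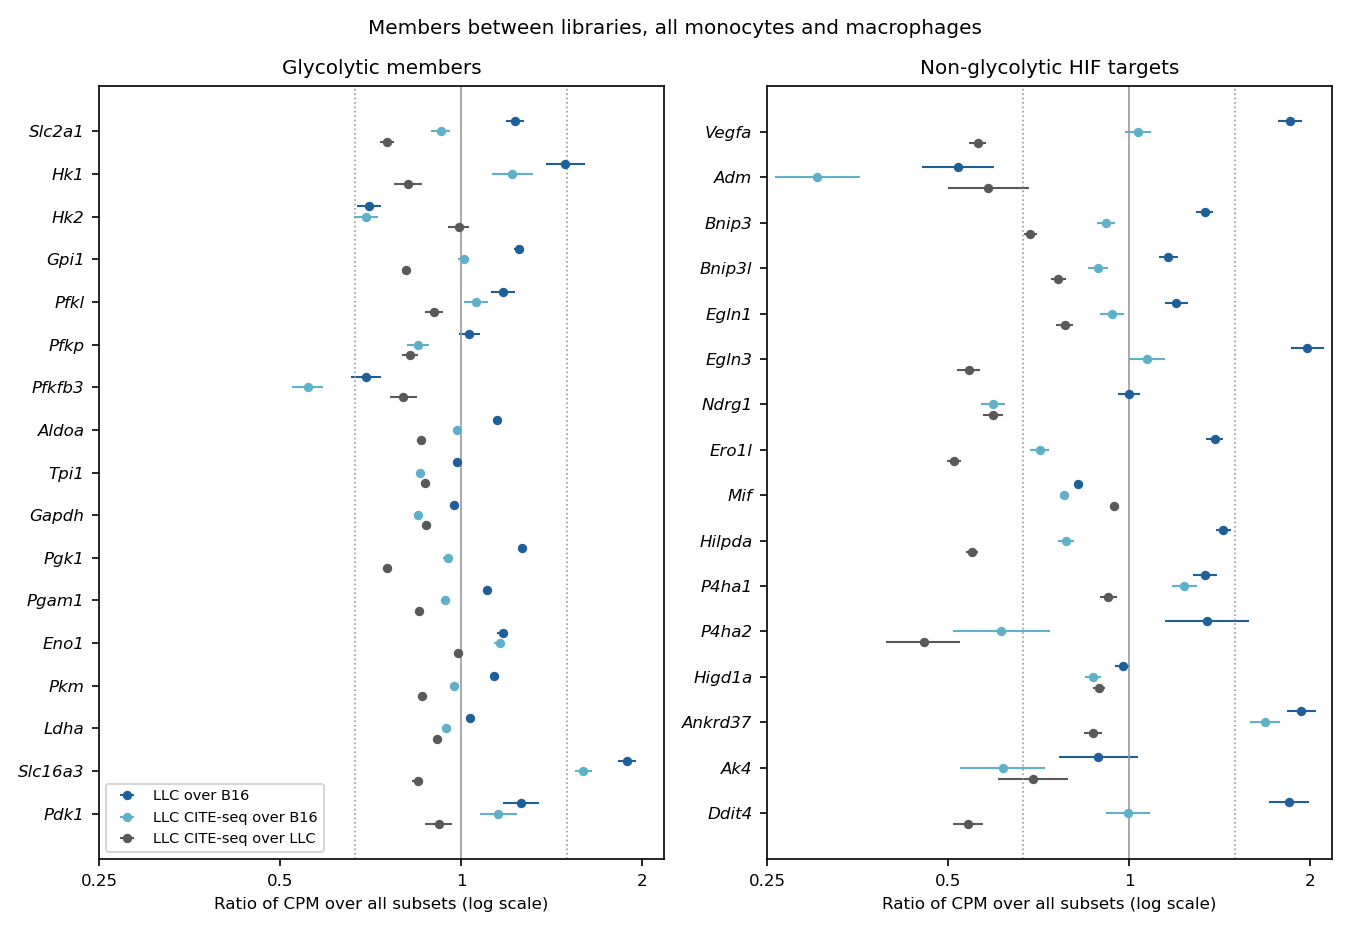
Ratio of CPM over all monocytes and macrophages, on a log axis, for each member in LLC over B16, LLC CITE-seq over B16 and LLC CITE-seq over LLC, with bars for the 95% interval of the ratio. Slc16a3 (1.88 and 1.596) lies above 1 against B16 for both LLC libraries, while Egln3 lies at 1.98 for LLC, 1.07 for LLC CITE-seq and 0.541 between the LLC libraries.

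Within a subset of the same name, the tumours differed in other ways. In Mono/TAM Hypoxic itself, no member was higher in LLC than in B16, against 18.5% of all genes, and only Adm was lower, with 0.472 (0.368-0.608), against 12.6%. LLC CITE-seq over B16 had 5 members lower, against 10.5% of all genes, namely Adm (0.281), P4ha2 (0.394), Ak4 (0.594), Ndrg1 (0.648) and Ero1l (0.6503). LLC CITE-seq over LLC had 7 lower, against 10.4%. They were Hk1 (0.569), Adm (0.595), Egln1 (0.623), Egln3 (0.502), Ndrg1 (0.608), Ero1l (0.453) and P4ha2 (0.287). The range of Slc2a1 was 492 to 686 CPM over the 3 libraries.

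Of the 3 subsets with 50 or more cells in every library, the interferon subset Mono/TAM IFN had the most members called between tumours, all of them lower in LLC. In LLC 18 of 33 members were lower than in B16, against 8.09% of all genes, and in LLC CITE-seq 23 of 32 were, against 8.52%. The 2 LLC libraries differed there in 2 members, both lower in LLC CITE-seq, against 4.17% of all genes. Hilpda stood at 768 (722-817) CPM in B16, 172 (158-188) in LLC and 146 (135-157) in LLC CITE-seq. B16 lay above both LLC libraries by a wide margin. Egln3 stood at 108, 39.3 and 31.3 CPM in B16, LLC and LLC CITE-seq, Ndrg1 at 181, 59.1 and 60.3, and Bnip3 at 409, 189.9 and 177. Slc2a1 stood at 297, 143 and 139.8 CPM. Ankrd37, Slc16a3 and Pdk1 lay nearest to 1, with ratios of LLC to B16 of 1.02, 0.9299 and 0.9896. The B16 pool held 158 cells, and the LLC pools 437 and 858. In Monocytes, of 17 glycolytic members and 13 HIF targets measured, only Slc2a1 (1.89) and Slc16a3 (1.55) were higher in LLC than in B16. That share is near the 7.52% of all genes called higher. In LLC CITE-seq 9 of 30 members were higher than in B16, against 7.13%, and none was lower in either library. Slc2a1 (1.67) and Slc16a3 (1.63) were among the 9.

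Among the other pathway genes, both HIF alpha subunits measured here were among the 3 with the highest ratios to B16. Over the monocytes and macrophages of the joint table, Epas1, which encodes HIF-2 alpha, had a ratio of 4.89 (2.64-10.1) of LLC to B16, on 124 and 11 UMIs, and Hif1a, which encodes HIF-1 alpha, 2.47, followed by Slc2a6 with 2.04. In the other table Epas1 had 6.21 (2.75-17.4) in LLC and 6.08 (2.68-17.04) in LLC CITE-seq over B16, where B16 held only 6 UMIs of it. Hif1a had 2.50 and 1.75 and Slc2a6 1.87 and 1.83, so that Hif1a ranked above Slc2a6 in LLC and below it in LLC CITE-seq. The lowest were Gdf15 (0.183), the hexokinase Hk3 (0.372) and Car9 (0.512) in the joint table. They were Gdf15 (0.184), Hk3 (0.368) and Car9 (0.451) for LLC in the other table, and included Gdf15 (0.151) and Hk3 (0.286) for LLC CITE-seq. For LLC CITE-seq over LLC, the lowest included the haem oxygenase Hmox1 (0.406) and Gbe1 (0.501), and the highest were Tigar (1.17), Car9 (1.23) and Pdk2 (1.35). Of 36 measured, 8 were higher and 4 lower in the joint table, 7 and 4 for LLC and 4 and 7 for LLC CITE-seq over B16, and none and 5 for LLC CITE-seq over LLC. In the same order, 11.9%, 11.8%, 9.93% and 3.03% of all genes were called higher. Those called lower were 11.9%, 11.9%, 11% and 2.81%.

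In neutrophils, most members were higher in LLC than in B16. Of 17 glycolytic members 13 were higher and none lower, and of 15 measured HIF targets 10 were higher and 1 lower, against 14.9% of all genes higher and 30.9% lower. Bnip3 had a ratio of 3.72 (3.12-4.47), Egln1 3.64, Higd1a 3.44, Ero1l 3.26 and Pfkfb3 3.43. Adm, with 20 UMIs in LLC and 5 in B16, had 0.6102 (0.222-2.08), an interval that includes 1. The median of all genes was -0.24 on the log2 scale. Within Neutrophil-1, 19 of 30 measured members were higher in LLC, against 12.8% of all genes, and none lower. Within Neutrophil-2, 10 of 32 were higher, against 24.5%, and 2 lower, against 31.8%. Hilpda had a ratio of 3.63 (2.599-5.23) in Neutrophil-1 and 0.841 (0.779-0.909) in Neutrophil-2, which is short of the 1.5-fold rule. Egln1 had 2.29 and 2.34, and Bnip3 2.53 and 2.13. T and NK cell markers summed to 95.1 and 122 CPM in the 2 neutrophil clusters of B16, against 18.7 and 8.82 in LLC, and their part in the result was not tested. Among the other pathway genes, 11 of 25 were higher and 4 lower, with Pgm2 (4.67), the glycogen synthase Gys1 (4.32) and Gbe1 (3.83) highest and Gdf15 (0.420), the pyruvate carrier subunit Mpc1 (0.487) and G6pdx (0.522) lowest.

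The remaining classes, each of 50 or more cells in LLC and in B16, were naive T cells, NK cells, B cells, cDC2 and migDC. Counting neutrophils too, Bnip3 and Hilpda were higher in LLC in all 6 classes, Egln3 in the 4 where it was measured, and Slc16a3, Vegfa, Ero1l and P4ha1 in 5 of 6, while Bnip3l and Eno1 were called in none. In NK cells 12 of 17 glycolytic members and 9 of 13 HIF targets were higher, against 9.31% of all genes. In B cells 10 of 17 and 7 of 12 were, against 13.8%. In cDC2 only 1 of 17 glycolytic members, Slc16a3 (1.61), but 10 of 13 HIF targets were higher, against 16.3%. None was lower in these 3 classes. In naive T cells 3 of 17 and 5 of 12 were higher, against 15.5%, and 1 and none lower, against 11.1%. In migDC 1 of 16 and 5 of 11 were higher, against 12.7%, and 2 and none lower, against 15%.

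Hilpda stood at 422 (376-472) CPM in LLC and 50.4 (38.96-64.1) in B16 in NK cells. In B cells it stood at 165 (120.01-222) CPM in LLC and 43.2 (29.5-60.96) in B16, and in cDC2 at 224 (206-243) CPM in LLC and 66.8 (55.8-79.3) in B16. The intervals of LLC and B16 do not overlap in any of these classes. In cDC2, Vegfa had a ratio of 4.61 (3.12-7.02), Ddit4 3.81, Egln3 3.16 and Ero1l 3.14, beside Gapdh at 0.958 and Pgk1 at 1.24. In NK cells Egln3 had 9.65 on 37 and 7 UMIs, Slc16a3 4.001, Pgam1 2.09 and Pgk1 2.04. In migDC the members called lower were Hk1, with 0.404, and Pfkfb3, with 0.637 (0.496-0.8101). In naive T cells Pdk1 was called lower with 0.616 (0.344-1.03), an interval that includes 1, and Slc16a3, on 19 and 36 UMIs, had 3.33 (1.81-5.97).

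Markers of other cells moved with these results. The neutrophil list summed to 8547 and 739.5 CPM in B cells of LLC and B16, 2039 and 109 in NK cells, 1919 and 618 in naive T cells, 1002 and 23.1 in cDC2 and 642 and 24.1 in migDC. Of its 7 genes only G0s2, in cDC2 of B16, was at 0 in B, NK or cDC2 cells. The macrophage list summed to 1105 and 449.6 CPM in NK cells, 1452 and 584 in cDC2, 1083 and 338 in migDC, 482 and 379.9 in naive T cells and 1366 and 1152 in B cells. Both lists were higher in LLC than in B16 in all 5 classes, and their part in the result was not tested.

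**Figure D5:**
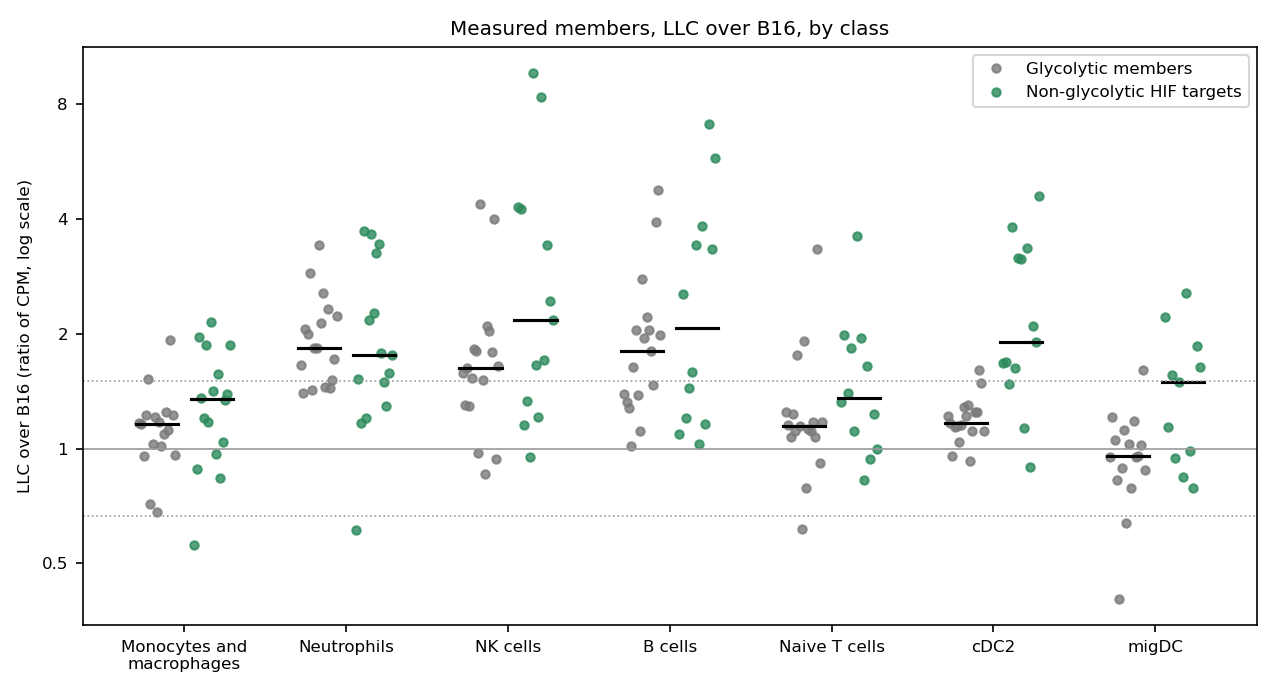
Ratio of LLC to B16 CPM, on a log axis, for each measured member with UMIs in both libraries, by class of the joint table and by group of members; the black bar is the median of the group and the dotted lines mark 1.5-fold. In cDC2 the HIF targets lie mostly above the upper line (10 of 13 called) while the glycolytic members lie between the lines (1 of 17 called).

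Of the other pathway genes, 10 of 25 measured were higher and 1 lower in LLC NK cells, with Hmox1 (3.72), Gys1 (3.65) and the aldolase Aldoc (3.28) highest and Egln2 (0.642), Vhl (0.676) and Pgm1 (0.684) lowest. In B cells 6 of 13 were higher and none lower. Hmox1 (19.5), a macrophage-rich enzyme, the lipid droplet coat gene Plin2 (4.72) and Mxi1 (4.52) were highest, and Mpc2 (0.834), Arnt (0.894) and Pdha1 (0.894) lowest. In cDC2 8 of 28 were higher and 3 lower, with Plod2 (15.9, on 21 and 1 UMIs), Mxi1 (2.96) and Hmox1 (2.84) highest and Hif1an (0.453), Tigar (0.516) and Hk3 (0.544) lowest. In naive T cells 8 of 21 were higher and 5 lower, from Plin2 (2.78), Pgm2 (2.26) and G6pdx (2.19) to Ldhb (0.184), Gbe1 (0.382) and Hif1an (0.394). In migDC 2 of 17 were higher and 1 lower, from Hmox1 (5.68), Plin2 (1.55) and Pgm1 (1.35) to Slc2a6 (0.562), Vhl (0.737) and Egln2 (0.787). Of all genes, 9.31% were called higher in NK cells, 13.8% in B cells, 16.3% in cDC2, 15.5% in naive T cells and 12.7% in migDC. Those called lower were 11.1% in naive T cells and 15% in migDC and are not given for the other classes.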

How the data were processed

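Deposited tables of unique molecular identifier counts per gene and cell were used, from 3 libraries of 3 pooled mice each. The submitters' processing notes name Cell Ranger and the mm10 build. Versions, filter cut-offs, dissociation and doublet treatment are not given in sources used for this work, and no doublet caller was run. The authors deposited whole-number counts of cells and genes already filtered, per the file headers and values, with cell names that were used as deposited. The antibody tag sample has no RNA table of its own and was not used.

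Counts of a gene were summed over the cells of a cluster, subset or class of at least 50 cells and divided by the pool's total. Ratios have exact conditional binomial 95% intervals, levels exact Poisson intervals and shares Clopper-Pearson intervals. Genes needed at least 20 UMIs over both sides, and comparisons between libraries omit genes that 1 of the libraries lists at 0 in all cells. All genes were fitted and only the members printed. The rule recovered simulated folds in a check on simulated data with counting error alone. The simulated counts had no variation between cells, mice or libraries, so the check says nothing about such variation. The likeness used log2 of CPM plus 10 over genes of at least 50 CPM in some pool. Promoter windows are from RefSeq GRCm38.p6 and exons from GENCODE on mm10; Ero1l was matched by its synonym.

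The members and lists were chosen with earlier results of these data known. All 33 members are named; of the 42 other pathway genes the 3 highest and 3 lowest measured of each designed comparison, except 1 gene that is not reported here; and the 10 genes most like the HIF targets. Alternatives were another scaling, UMI minimum, per-cell means, thinning, omission of deep cells, equal weight of clusters, omission of hypoxic or proliferating clusters and another annotation of B16. After seeing the data, a reference without LLC TAM Hypoxic and omission of cells with T, NK or B cell markers were added. Python 3.11.15, numpy 2.4.6, scipy 1.17.1, pandas 2.3.3 and matplotlib 3.10.9 were used.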

Additional observations from a re-analysis of the deposited data

Results flagged for a closer look

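Higd1a, a mitochondrial protein, was the measured member whose ratio of neutrophils to monocytes and macrophages was called in opposite directions in the 2 tumours, at 2.02 (1.92-2.13) in LLC and 0.569 (0.447-0.714) in B16. It stood at 491 and 143 CPM in neutrophils of LLC and B16 and at 243 and 251 in monocytes and macrophages. By cluster, Higd1a stood at 717 and 358 CPM in Neutrophil-2 and at 112 and 51.6 in Neutrophil-1 of LLC and B16. Each cluster thus lay on the same side of monocytes and macrophages in both tumours. Neutrophil-2 held 58.4% of LLC and 28.4% of B16 neutrophils, and the part of this share was not tested. The difference between the tumours was not tested either, since each tumour is 1 library.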

How the results depend on the processing

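Each group is 1 library, so the intervals cover counting error alone and variation between mice and libraries was not measured. No paired analysis was possible because each group holds 1 library and the result comes from no test. The count of members higher in Mono/TAM Hypoxic stayed within 1.5 times under every alternative run. In LLC over B16 (joint table) 7 members were higher and 1 lower; equal weight of shared clusters gave 2 and 0, omission of cells with T, NK or B cell marker UMIs, added after seeing the data, 3 and 3, and omission of the 5% deepest cells 2 lower. In the monocyte and macrophage table, 5 higher and 1 lower became 0 and 3 with equal weight, and 5 lower without hypoxic or proliferating subsets. LLC CITE-seq over B16, 2 higher and 5 lower, became 0 and 2 with equal weight and 8 lower when thinned. LLC CITE-seq over LLC, 8 lower, became 1 with equal weight and 2 without the hypoxic subsets. For neutrophils over monocytes and macrophages, median-of-ratios scaling gave 32 higher in place of 17 in LLC, by taking off the median of all genes. It gave 3 lower in place of 6 in B16. No share of all genes is given for these scaled counts. Thinning gave 4 lower in place of 1 in LLC. A minimum of 100 UMIs, which leaves fewer members, cut the calls over the 6 other classes from 86 higher and 4 lower to 51 and 2. These single values reversed on the log2 scale, Egln3 in LLC over B16 to -0.30 with equal weight and Adm in LLC CITE-seq over LLC to 0.19 without the hypoxic subsets; the cause was not tested.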
